A study of Mus musculus with 3 samples.

Results

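The genes described here encode the subunits and named assembly factors of respiratory chain complexes I, III and IV and of ATP synthase (complex V) in mouse CD4+ T cells. They were taken by symbol, as all genes whose names start with Nduf, Uqcr, Cox4 to Cox8 or Atp5, together with the mitochondrial genes for subunits of the same complexes, and they had to reach 10 unique molecular identifiers (UMIs, 1 per captured transcript) over the 3 libraries. Of the 31053 genes of the count tables, 102 had such a symbol and 97 reached that number, 84 in the nuclear genome and 13 in the mitochondrial genome. The other 5 were *Ndufa4l2*, with 3 UMIs, and *Cox7b2*, *Cox8b*, *Cox8c* and a second identifier for *Atp5o*, each with none. The symbols do not take in complex II, cytochrome c or *Cyc1*, which are given separately. *Ndufa4* carries a complex I name, is known as a subunit of complex IV, and is counted here under its name.

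Single-cell RNA libraries were analyzed, 3 in all with 1 per group, all from CD4+ T cells of the spleen of C57BL/6 mice that were enriched for naïve cells and sorted as 7AAD-CD3+CD4+. The unstimulated WT library (0hr-WT) came from *Ift20* f/f mice with DPBS as its labelled treatment. The stimulated WT library (24hr-WT) came from the same genotype after 24 h in culture with antibodies to CD3 and to CD28, each at 1 μg/mL. The stimulated IFT20-KO library (24hr-KO) had the same stimulation and came from *Ift20* f/f CD4 cre mice, in which Cre under the *Cd4* promoter deletes the gene from thymic T cell development on, and all 3 libraries carry the floxed allele. There was no unstimulated IFT20-KO library, the number of mice per library is not given in the sources used here, and the cells of 1 library are not replicates. No test between conditions was therefore possible. Intervals in brackets are exact 95% intervals that cover counting error only, and every difference is between these 3 libraries.

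The respiratory chain moves electrons from NADH through complex I, coenzyme Q, complex III and cytochrome c to oxygen at complex IV, and the proton gradient that complexes I, III and IV build drives ATP synthesis at complex V. Each of these 4 complexes is assembled from subunits of both genomes. The mitochondrial genome supplies hydrophobic core subunits and is transcribed as long RNAs that are cut into single transcripts, while the other subunits are transcribed one by one in the nucleus and imported. A resting T cell uses little energy, and activated T cells grow, build new mitochondria and use both glycolysis and respiration.

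Barcodes with more than 200 genes and mitochondrial genes under 15% of their UMIs were kept, which left 8031, 9903 and 13920 barcodes with 37133949, 116979076 and 106435143 UMIs in 0hr-WT, 24hr-WT and 24hr-KO. The median depth was 4627, 12167 and 5014.5 UMIs per barcode. The lowest barcode had 500, 709 and 1493 UMIs, so the deposited tables start at different depths. Between 1.01% and 2.01% of a library's barcodes also occurred in another library. *Ift20*, the targeted gene, stood at 64.4, 76.0 and 6.61 UMIs per 1000000 (CPM) in 0hr-WT, 24hr-WT and 24hr-KO, a log2 ratio of -3.52 (-3.64 to -3.41) for 24hr-KO over 24hr-WT. Summed T cell markers (*Cd3d*, *Cd3e*, *Cd3g*, *Cd4* and *Trac*) were at 3458, 2786 and 2929 CPM in that order. The 4 naïve markers were at 2706, 696 and 823 CPM and the 4 activation markers at 168, 1043 and 1017 CPM. Of other cell types, the 4 B cell markers summed to at most 3.31 CPM and the 4 erythroid markers to at most 0.0094 CPM in any library. The 2 CD8 T cell markers summed to at most 28.7 CPM, of which *Cd8b1* gave 28.6 CPM in 0hr-WT. The 3 NK cell markers summed to at most 42.2 CPM, of which *Klrd1* gave 42.0 CPM in 0hr-WT. The 5 myeloid markers summed to at most 80.4 CPM, of which *Cst3* gave 80.3 CPM in 24hr-KO. Each other gene of these last 3 lists was at 0.57 CPM or less in every library. The part of other cell types in the results was not tested.

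The nuclear members lie on 19 chromosomes, and what a set of genes so scattered shares in sequence was looked at in their promoters. RefSeq promoter windows, from 250 bases before the start to 50 bases after it, were found for 71 of the 84 nuclear members. Sets of letters for 4 kinds of factor were searched on both strands. GCGCATGC, the core of the site of nuclear respiratory factor 1 (NRF1), was in 15.5% of the members' promoters and in 3.05% of the promoters of all 27025 genes of the table. CCGGAAG, bound by ETS factors such as GABPA, was in 22.5% and 9.93%. AAGATGGC, the YY1 letters, was in 15.5% and 3.19%, and TGACGTCA, the CREB letters, in 5.63% and 2.03%. None of these letters contains another. The log2 ratio after stimulation, described next, had a median of 0.63 in the 35 members with any of the 4 and of 0.64 in the 36 with none. Bases before a RefSeq start are printed for 7 members, from the RefSeq table on assembly GRCm38.p6 (mm10), on the gene's strand and cut where an exon of the same gene in GENCODE M21 begins. *Atp5g1*, *Atp5g2* and *Atp5g3* are shown because they encode the same mature protein and differed in their ratio, *Atp5l* and *Cox6a1* because these bases hold NRF1 or ETS letters, and *Ndufab1* and *Ndufa3* because they had the highest and the lowest ratio after stimulation of the nuclear members that reached 50 CPM. They are *Atp5g1* at chr11:96075671-96075881, *Atp5g2* at chr15:102671128-102671297, *Atp5g3* at chr2:73911327-73911576, *Atp5l* at chr9:44920743-44920992, *Cox6a1* at chr5:115348982-115349208 and *Ndufab1* at chr7:122101887-122102098, all on the minus strand, and *Ndufa3* at chr7:3617123-3617372 on the plus strand. The printed bases of *Atp5g2* lie inside the gene as annotated in GENCODE M21 (chr15:102662864-102672352), between its exons. They are not upstream of its annotated 5′ end, unlike those of the other printed members. Capitals mark the NRF1 and ETS letters on either strand. The windows of *Atp5g2* (NRF1), *Cox6a1* (ETS) and *Ndufa3* (YY1) hold further letters that were counted above but lie outside the printed bases.
Atp5g1: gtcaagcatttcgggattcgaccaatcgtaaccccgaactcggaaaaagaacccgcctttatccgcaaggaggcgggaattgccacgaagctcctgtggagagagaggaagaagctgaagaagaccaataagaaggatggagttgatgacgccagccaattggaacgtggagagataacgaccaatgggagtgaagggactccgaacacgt
Atp5g2: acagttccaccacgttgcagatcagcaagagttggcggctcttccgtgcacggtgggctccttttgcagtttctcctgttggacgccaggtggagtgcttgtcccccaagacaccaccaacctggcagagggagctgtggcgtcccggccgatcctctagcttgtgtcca
Atp5g3: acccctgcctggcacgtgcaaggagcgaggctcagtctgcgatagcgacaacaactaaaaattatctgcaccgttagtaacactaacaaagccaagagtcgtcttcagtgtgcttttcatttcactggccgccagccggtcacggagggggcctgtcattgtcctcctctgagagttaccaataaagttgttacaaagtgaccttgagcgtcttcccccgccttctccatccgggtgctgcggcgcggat
Atp5l: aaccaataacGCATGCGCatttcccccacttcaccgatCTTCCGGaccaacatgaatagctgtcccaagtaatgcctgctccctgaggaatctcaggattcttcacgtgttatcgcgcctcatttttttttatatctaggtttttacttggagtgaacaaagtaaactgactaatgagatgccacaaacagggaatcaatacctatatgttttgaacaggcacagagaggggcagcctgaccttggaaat
Cox6a1: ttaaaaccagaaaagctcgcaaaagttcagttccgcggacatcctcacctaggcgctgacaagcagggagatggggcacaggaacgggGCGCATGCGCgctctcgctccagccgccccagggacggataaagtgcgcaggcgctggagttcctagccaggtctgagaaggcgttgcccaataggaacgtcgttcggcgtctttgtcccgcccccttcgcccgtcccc
Ndufab1: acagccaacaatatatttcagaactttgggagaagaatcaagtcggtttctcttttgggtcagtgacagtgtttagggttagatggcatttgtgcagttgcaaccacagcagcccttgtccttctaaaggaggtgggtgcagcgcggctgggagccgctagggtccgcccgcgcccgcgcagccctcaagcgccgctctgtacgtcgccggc
Ndufa3: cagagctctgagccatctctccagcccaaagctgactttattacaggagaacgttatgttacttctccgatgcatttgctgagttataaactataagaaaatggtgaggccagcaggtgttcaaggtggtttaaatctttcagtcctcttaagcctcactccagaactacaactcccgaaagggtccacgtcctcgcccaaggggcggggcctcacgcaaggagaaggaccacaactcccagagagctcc

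Stimulation of WT cells was compared first, to see how transcripts of the respiratory chain differ between resting and activated CD4+ T cells. Nuclear and mitochondrial members went opposite ways. The median log2 ratio of CPM, 24hr-WT over 0hr-WT, was 0.63 (0.60 to 0.66) over the 84 nuclear members and -0.56 (-0.65 to -0.47) over the 13 mitochondrial members, beside -0.11 over all 13896 genes compared. A ratio above 0 was found for 72 of 84 nuclear members and 1 of 13 mitochondrial members, and for 46.0% of all genes. At least 1.5-fold higher were 44 nuclear members and no mitochondrial member, against 28.1% of all genes. At least 1.5-fold lower were 3 nuclear and 5 mitochondrial members, against 35.3% of all genes. Where a gene reached 50 CPM in 1 or both libraries, the median was 0.28 over 3339 genes and 0.63 over 72 nuclear members, and 38.7% of those genes were at least 1.5-fold higher and 24.3% at least 1.5-fold lower.

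**Figure D1:**
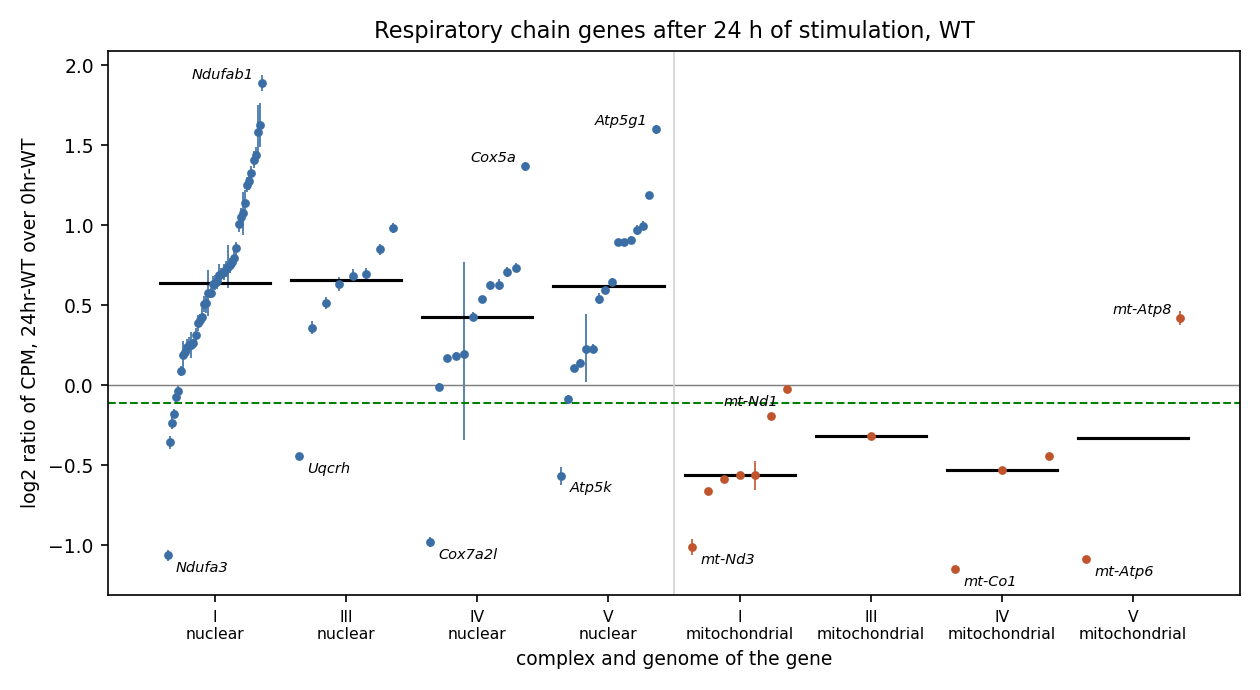
Each point is a gene with at least 200 UMIs over the 3 libraries and shows its log2 ratio of CPM, 24hr-WT over 0hr-WT, with its exact 95% counting interval as a bar. Genes are grouped by complex and genome on the horizontal axis, black lines are the medians of all members of a group and the dashed green line is the median of all genes (-0.11). The nuclear groups have medians of 0.43 to 0.66, and all mitochondrial genes other than *mt-Atp8* lie under 0.

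As shares of all UMIs, the nuclear members made up 1.87% of 0hr-WT and 2.73% of 24hr-WT, and the mitochondrial members 2.51% and 1.61%. There were thus 1.34 mitochondrial UMIs per nuclear UMI of these genes in 0hr-WT and 0.59 in 24hr-WT. That ratio was lower in 24hr-WT in each complex, from 0.80 to 0.42 for complex I, from 1.43 to 0.88 for complex III, from 2.93 to 1.35 for complex IV and from 0.72 to 0.22 for complex V. Per barcode, and so without scaling to the total, the nuclear members went from 86.5 to 323 UMIs and the mitochondrial members from 116 to 190 UMIs. Both were higher in the stimulated library on that scale, in which the median of all genes was itself 1.24 on the log2 scale.

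Within complex I, 24 of 45 nuclear members were at least 1.5-fold higher and the median log2 ratio was 0.64. Of all genes 28.1% were as much higher, and of those at 50 CPM or more 38.7%. All 7 nuclear core subunits, which carry the flavin and iron-sulfur clusters, were higher. *Ndufs8*, an iron-sulfur subunit, went from 68.5 to 166 CPM, a log2 ratio of 1.28 (1.22 to 1.34). *Ndufv2* went from 114 to 228 CPM (log2 1.01). *Ndufv1*, the subunit that binds NADH, went from 70.3 to 122 CPM (log2 0.80), and *Ndufs3* and *Ndufs7* had log2 ratios of 0.71 and 0.64. The smallest ratio among them belonged to *Ndufs1*, the largest iron-sulfur subunit, with 41.6 and 49.6 CPM (log2 0.25, 0.17 to 0.34).

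The accessory subunits of complex I, which surround the core, spread more widely. Their median log2 ratio was 0.43, with 23 of 29 above 0. *Ndufab1*, the mitochondrial acyl carrier protein, which also serves fatty acid synthesis, was at 103 CPM in 0hr-WT, 380.0 in 24hr-WT and 368 in 24hr-KO, a log2 ratio of 1.89 (1.84 to 1.94) after stimulation. *Ndufa3*, a small membrane subunit, was at 290 CPM, 139 and 130 in the same order, a log2 ratio of -1.06 (-1.10 to -1.03). *Ndufb6*, *Ndufa12*, *Ndufc2*, *Ndufb8* and *Ndufs6* followed *Ndufab1* with log2 ratios of 1.44, 1.41, 1.33, 1.25 and 1.05. *Ndufa1*, *Ndufv3*, *Ndufa6*, *Ndufa2* and *Ndufb4* were lower, with log2 ratios of -0.36, -0.24, -0.18, -0.07 and -0.04. Subunits of 1 complex therefore differed in ratio by 2.95 on the log2 scale between *Ndufab1* and *Ndufa3*. All 8 assembly factors with an Ndufaf name were higher, with a median of 0.91, led by *Ndufaf2* with 12.8 and 39.6 CPM (log2 1.63) and *Ndufaf6* with 9.05 and 27.2 CPM (log2 1.59).

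In complex III, 5 of 8 nuclear members were at least 1.5-fold higher, against 28.1% of all genes, with a median log2 ratio of 0.66. *Uqcrfs1*, the Rieske iron-sulfur protein, went from 178 to 289 CPM (log2 0.70), and the core proteins *Uqcrc1* and *Uqcrc2* had log2 ratios of 0.68 and 0.63. *Uqcrq* was highest at 0.98. *Uqcrh*, the hinge protein beside cytochrome c1, was the one lower member, with 709 and 521 CPM (log2 -0.44).

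Complex IV had the lowest nuclear median, 0.43 over 15 members. At least 1.5-fold higher were 6 of the 15, including *Cox6a2* with 1 and 25 UMIs. That is near the 38.7% of all genes at 50 CPM or more, and 28.1% of all genes were as much higher. *Cox5a* stood out with 284 CPM in 0hr-WT, 733 in 24hr-WT and 681 in 24hr-KO, a log2 ratio of 1.37 (1.34 to 1.40). *Cox5b* (log2 0.73), *Cox7a2* (0.71), *Cox7b* (0.63) and *Cox6a1* (0.63) were also past 1.5-fold. *Cox4i1*, a subunit needed for assembly, went from 745 to 837 CPM (log2 0.17), and *Cox7c* was at 472 and 469 CPM (log2 -0.01, with an interval from -0.03 to 0.01). *Cox7a2l*, classed as a supercomplex assembly factor, was at 405 CPM, 205 and 211 in 0hr-WT, 24hr-WT and 24hr-KO. Its log2 ratio after stimulation was -0.98 (-1.01 to -0.95), and supercomplexes were not measured. *Cox7a2*, its relative within complex IV, was at 253, 414 and 372 CPM in the same order. The muscle, lung and testis isoforms were close to absent. *Cox4i2* had 4, 7 and 3 UMIs, *Cox6a2* had 1, 25 and 19 UMIs, and *Cox6b2* stood at 0.97, 1.11 and 1.49 CPM beside 338, 455 and 428 for *Cox6b1*. Ratios from so few UMIs (*Cox4i2* -0.85, with an interval from -2.82 to 1.37, and *Cox6a2* 2.99, from 0.38 to 8.35) count among the members past 1.5-fold and say little at this depth.

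In complex V, 9 of 16 nuclear members were at least 1.5-fold higher, against 28.1% of all genes, and the median log2 ratio was 0.62. The 3 genes for subunit c, the ring that turns as protons pass, had the highest median of any role in complex V, 1.19. *Atp5g1* was at 281 CPM in 0hr-WT, 851 in 24hr-WT and 791 in 24hr-KO, a log2 ratio of 1.60 (1.57 to 1.63) after stimulation. *Atp5g3* was at 539, 1227 and 1195 CPM (log2 1.19, 1.17 to 1.21), and *Atp5g2* at 634, 1180 and 1196 CPM (log2 0.90, 0.88 to 0.92). Their intervals do not overlap, so the 3 genes differed in ratio by more than counting error. *Atp5g1* made up 19.3% of the UMIs of the 3 genes in 0hr-WT (19.0 to 19.6), 26.1% in 24hr-WT (26.0 to 26.3) and 24.9% in 24hr-KO. The catalytic head subunits *Atp5b* and *Atp5a1*, β and α, had log2 ratios of 0.89 and 0.60, and the peripheral stalk subunits *Atp5j* and *Atp5f1* of 1.00 and 0.97. The membrane accessory subunits were lower in the order, with *Atp5l* at 0.14, *Atp5j2* at 0.23 and *Atp5k*, subunit e, at -0.57 (99.9 and 67.5 CPM).

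All 13 mitochondrial genes of the count tables are members, and 12 were lower in 24hr-WT. *mt-Co1*, the catalytic subunit of complex IV, was at 4907 CPM in 0hr-WT, 2213 in 24hr-WT and 2589 in 24hr-KO, a log2 ratio of -1.15 (-1.16 to -1.14) after stimulation. *mt-Atp6*, the proton channel of complex V, was at 4395, 2071 and 2274 CPM (log2 -1.09), and *mt-Nd3* of complex I at 147, 72.7 and 75.1 CPM (log2 -1.01). These 3 were the lowest. *mt-Nd4*, *mt-Nd5*, *mt-Nd4l*, *mt-Nd6*, *mt-Co3* and *mt-Co2* had log2 ratios of -0.66, -0.59, -0.56, -0.56, -0.53 and -0.44. *mt-Cytb*, the catalytic subunit of complex III, stood at -0.32, *mt-Nd2* at -0.19 and *mt-Nd1* at -0.02 (994 and 978 CPM). *mt-Atp8* was the exception, with 141 CPM in 0hr-WT, 188 in 24hr-WT and 249.9 in 24hr-KO, a log2 ratio of 0.42 (0.38 to 0.47). It overlaps *mt-Atp6* by 43 bases on the same strand, and the 2 genes, which are known to share 1 transcript, differed in ratio by 1.51 on the log2 scale.

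**Figure D2:**
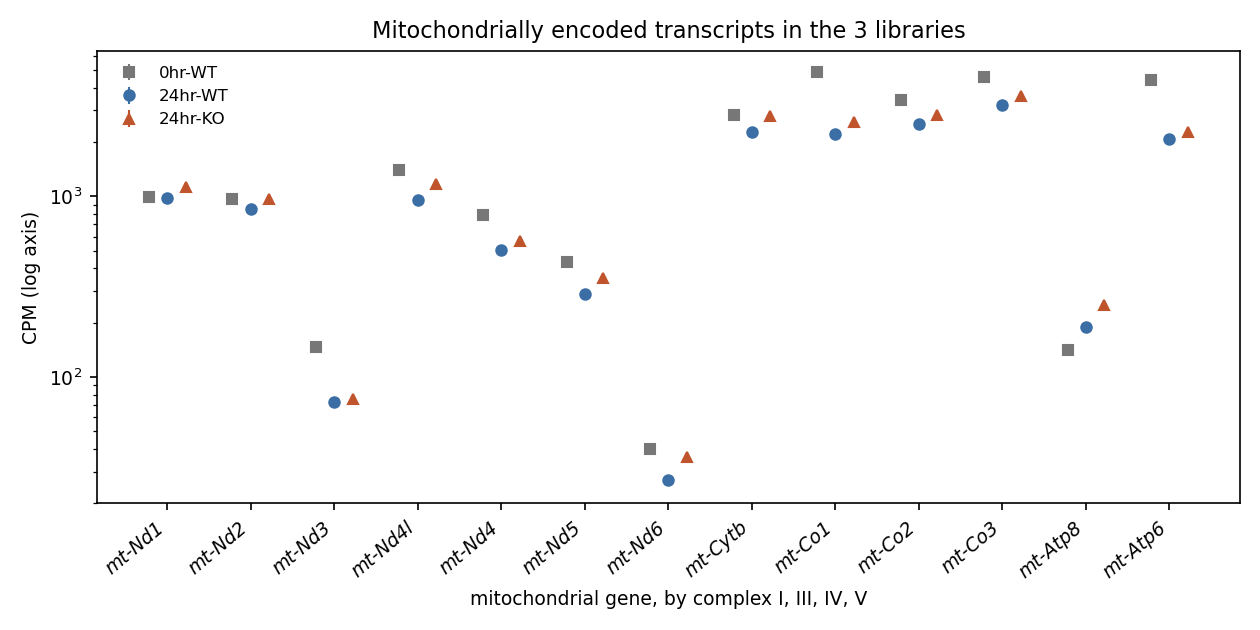
Level of each mitochondrial gene in CPM, on a log axis, in 0hr-WT (grey squares), 24hr-WT (blue circles) and 24hr-KO (orange triangles), with exact 95% counting intervals that are mostly smaller than the symbols. In 11 of the 13 genes 0hr-WT is highest, the others being *mt-Nd1* and *mt-Atp8*, and in each gene 24hr-KO lies above 24hr-WT.

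Nuclear copies of mitochondrial sequence, and pseudogenes of nuclear members, can take reads from the gene that made them. Of the mitochondrial members 7 share a stretch of at least 90 bases at 98% identity or more with another annotated gene, and their median log2 ratio was -0.66, against -0.25 for the 6 without one. The 7 include *mt-Co1*, *mt-Atp6* and *mt-Nd3*, which had the lowest ratios, and not *mt-Atp8*. Of the nuclear members 20 share such a stretch, among them *Ndufab1*, *Ndufa12*, *Cox7a2l*, *Cox7c*, *Atp5g1* and *Atp5g2*, with a median of 0.59 against 0.63 for the other 64. Ratios of these genes are less certain than their intervals, and how reads were divided is not given in the sources used here. On the opposite strand 26 nuclear members overlap another counted gene.

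The level of both groups depended on the depth of a barcode. In 24hr-WT, barcodes under 4000 UMIs were 23.2% of the library and the mitochondrial members made up 9.71% of their UMIs, against 1.30% in deeper barcodes, while the nuclear members made up 1.40% and 2.78%. In 24hr-KO, barcodes under 4000 UMIs were 47.8% of the library, with 5.49% and 1.196% for the mitochondrial members and 1.82% and 2.76% for the nuclear members. In 0hr-WT they were 33.1%, with 3.40% and 2.31% and with 1.74% and 1.90%. In that library the difference lay in the 925 barcodes under 2000 UMIs, whose median was 9.97% for the mitochondrial and 0.53% for the nuclear members, while from 2000 to under 4000 UMIs the medians were 2.29% and 1.89%. Barcodes rich in mitochondrial and poor in nuclear respiratory chain transcripts were therefore found in all 3 libraries, under 2000 UMIs in 0hr-WT and under 4000 UMIs in the stimulated libraries. In the stimulated barcodes under 4000 UMIs all 13 mitochondrial genes were higher than in deeper ones, by a median log2 ratio of 2.92 in 24hr-WT and 2.20 in 24hr-KO. Over all genes that median was 0.88 in 24hr-WT and 0.68 in 24hr-KO. Above 0 were 9399 of 12802 genes and 10096 of 13542 genes in that order. The stimulated barcodes under 4000 UMIs held T cell markers at 3605 CPM in 24hr-WT and 3234 in 24hr-KO, naïve markers at 2147 and 1575 CPM, and activation markers at 2364 and 1648 CPM. In the deeper barcodes the naïve markers were at 639 and 686 CPM and the activation markers at 991 and 902 CPM.

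**Figure D3:**
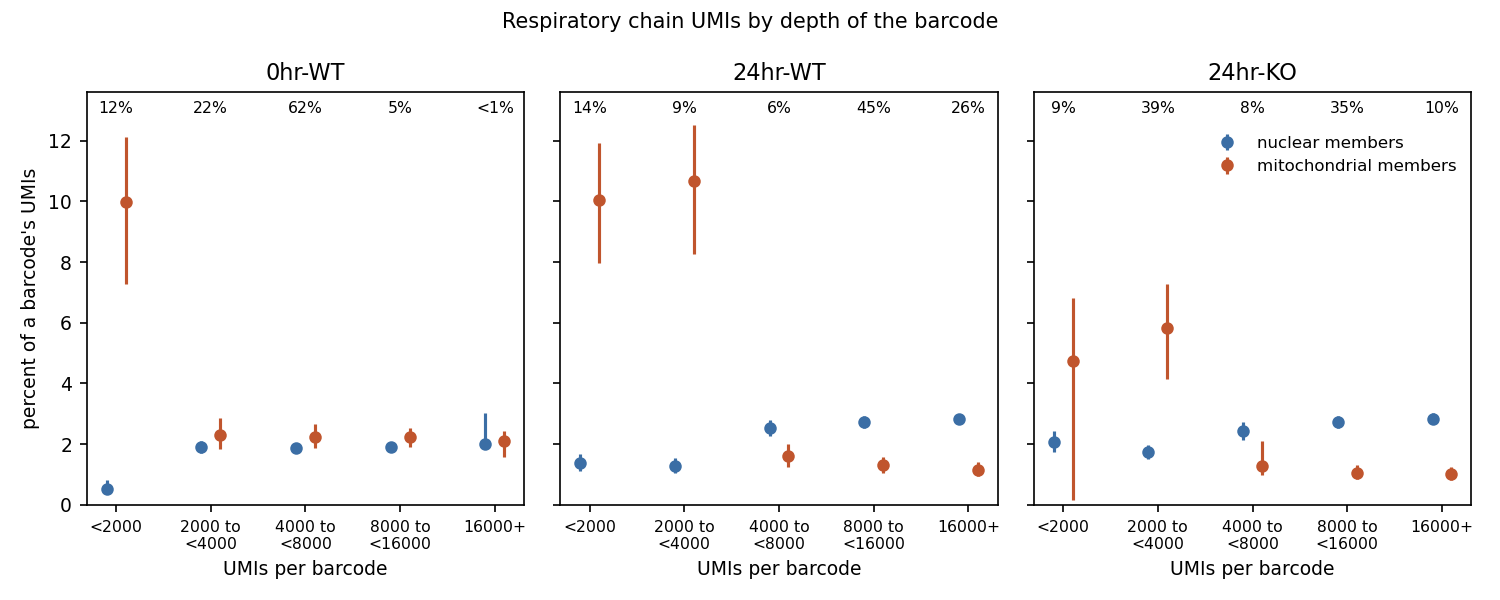
Percent of a barcode's UMIs from nuclear members (blue) and mitochondrial members (orange) against the barcode's UMIs in 5 bins, for the 3 libraries. Points are medians over kept barcodes, bars run from the lower to the upper quartile, and the numbers at the top give the share of the library's barcodes in each bin. Mitochondrial medians are 9.97% and 2.29% in the 2 lowest bins of 0hr-WT, 10.0% and 10.7% in those of 24hr-WT, 4.75% and 5.83% in those of 24hr-KO, and at most 2.25% in all libraries from 4000 UMIs on.

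Among barcodes with at least 4000 UMIs the median log2 ratio after stimulation was 0.63 for the nuclear members, with 71 of 84 above 0, and -0.73 for the mitochondrial members, with 12 of 13 below 0. The median of all genes was -0.15 in these barcodes. Within narrower bins the mitochondrial median, 24hr-WT over 0hr-WT, was 0.25 under 2000 UMIs, 2.11 from 2000 to under 4000, with 13 of 13 genes above 0, -0.22 from 4000 to under 8000, -0.57 from 8000 to under 16000 and -0.59 from 16000 on, where 0hr-WT had 14 barcodes. The nuclear median in the same bins was 0.84, -0.36 (-0.57 to -0.16), 0.44, 0.57 and 0.14. The median of all genes in these bins was -0.12, 0.48, -0.03, -0.18 and -0.44. From 2000 to under 4000 UMIs both directions of the members were thus the opposite of those in the pooled libraries. The mitochondrial median was 0.16, with 9 of 13 genes above 0, as a mean of each gene's share over all kept barcodes. It was 0.47, with 10 of 13 genes above 0, when barcodes were thinned to 1400 UMIs, which left out 801 shallower barcodes of 0hr-WT, 421 of 24hr-WT and none of 24hr-KO, and the nuclear median was then 0.45. The median thinned barcode went the other way and held 32 mitochondrial UMIs of 1400 in 0hr-WT, 20 in 24hr-WT and 24 in 24hr-KO, while the mean was 33.7, 43.3 and 45.9. The quartiles were 26 to 39, 14 to 30 and 13 to 78. Between 0hr-WT and the stimulated libraries the median and the mean thus differed in direction. For nuclear members the median barcode held 26, 36 and 32 UMIs of 1400. Across barcodes the 2 counts ran against each other, with a Spearman coefficient of -0.14 over 7230 barcodes of 0hr-WT, -0.52 over 9482 of 24hr-WT and -0.64 over 13920 of 24hr-KO, as a description of counts that share each barcode's fixed total.

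Stimulated IFT20-KO and WT cells were compared next, since the cellular respiration of these cells was among the study's questions. The differences were small. The median log2 ratio of CPM, 24hr-KO over 24hr-WT, was -0.06 (-0.08 to -0.04) over the 84 nuclear members and 0.21 (0.20 to 0.22) over the 13 mitochondrial members, beside 0.14 over all 13891 genes compared. A ratio below 0 was found for 68 of 84 nuclear members and 31.9% of all genes. Where a gene reached 50 CPM in 1 or both libraries, it was found for 62 of 73 nuclear members and 53.0% of 2943 genes, with medians of -0.06 and -0.01. No nuclear member was at least 1.5-fold higher and 1 was at least 1.5-fold lower, *Cox4i2* with 7 and 3 UMIs, against 14.0% and 3.97% of all genes. At least 1.2-fold higher were 2 nuclear members, *Cox6b2* and *Atp5s*, and 5 mitochondrial members, against 36.1% of all genes, and at least 1.2-fold lower was *Cox4i2*, against 8.52%. The mitochondrial UMIs per nuclear UMI were 0.59 (0.59 to 0.59) in 24hr-WT and 0.71 (0.71 to 0.71) in 24hr-KO.

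The nuclear medians of the 4 complexes were close to each other, -0.05 for complex I, -0.07 for complex III, -0.11 for complex IV and -0.06 for complex V. *Ndufs8* had the highest ratio of the nuclear members with at least 50 CPM, with 166 CPM in 24hr-WT and 177 in 24hr-KO (log2 0.09, 0.06 to 0.12), followed by *Ndufs1* (0.08) and *Cox4i1* (0.05). The lowest of these nuclear members were *Ndufaf4*, an assembly factor, with 86.9 and 74.6 CPM (log2 -0.22, -0.26 to -0.18), and the accessory subunits *Ndufc1* (-0.21) and *Ndufs4* (-0.17). *Atp5b*, *Atp5a1* and *Uqcrfs1* had log2 ratios of -0.06, -0.05 and -0.05. *Cox5a* and *Atp5g1*, both far higher after stimulation, stood at -0.11 each. *Atp5s*, known as coupling factor B, was at 7.35 and 9.66 CPM (log2 0.39, 0.26 to 0.53).

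Beside 9456 of all 13891 genes compared, all 13 mitochondrial genes had a ratio above 0. The highest were *mt-Nd6*, the one subunit encoded on the other strand of the mitochondrial genome, with 26.9 CPM in 24hr-WT and 36.2 in 24hr-KO (log2 0.43, 0.36 to 0.50), *mt-Atp8* (0.41), *mt-Nd4l* (0.31), *mt-Nd5* (0.30) and *mt-Cytb* (0.29). *mt-Co1*, *mt-Nd1*, *mt-Nd2*, *mt-Nd4*, *mt-Co2*, *mt-Co3* and *mt-Atp6* lay between 0.14 and 0.23, and *mt-Nd3* at 0.05. As given above, 24hr-KO held the larger share of barcodes under 4000 UMIs, and the ratios differed with depth. Among barcodes with at least 4000 UMIs, 11 of the 13 mitochondrial genes were below 0, with a median of -0.10, and 34 of 84 nuclear members were above 0, with a median of -0.02. The median of all genes was 0.049 in these barcodes. At 8000 UMIs or more, a limit added after the data were seen, all 13 mitochondrial genes were below 0, with a median of -0.15, and the nuclear median was -0.01. The median of all genes was 0.035 at that limit. The share of all genes below 0 was not counted at these limits. At 8000 UMIs or more the ratio of mitochondrial to nuclear UMIs was 0.46 in 24hr-WT and 0.41 in 24hr-KO, the opposite order to the pooled one.

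**Figure D4:**
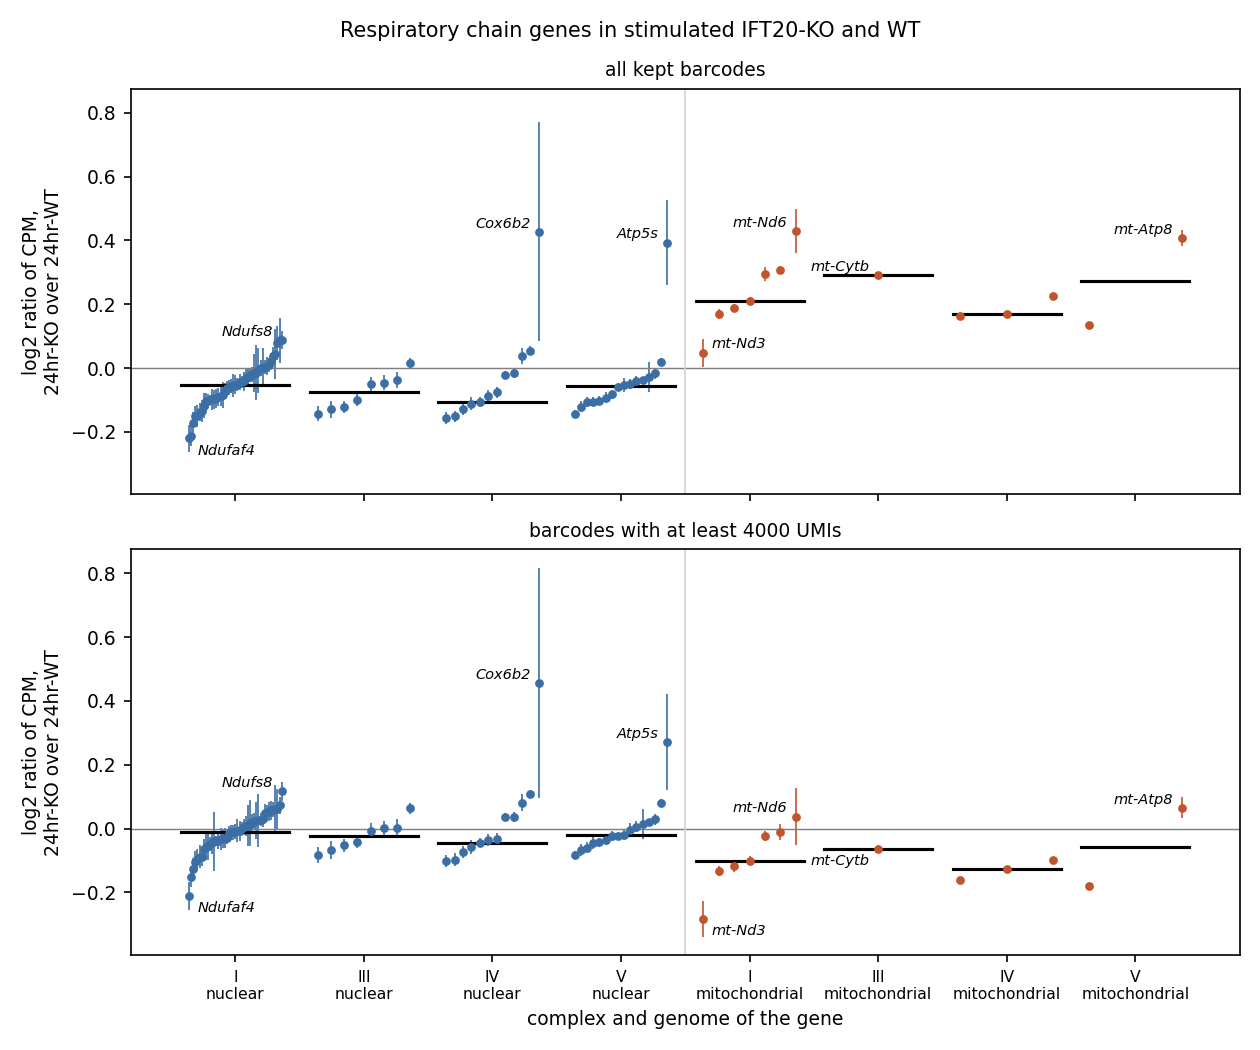
Log2 ratio of CPM, 24hr-KO over 24hr-WT, of each gene with at least 200 UMIs over the 3 libraries, grouped by complex and genome, for all kept barcodes (top) and for those with at least 4000 UMIs (bottom). Bars are exact 95% counting intervals and black lines the medians of all members of a group. The 13 mitochondrial genes lie above 0 in the top panel, and 11 lie below 0 in the bottom panel.

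Within narrower bins of depth the mitochondrial median, 24hr-KO over 24hr-WT, was -1.01 under 2000 UMIs, -0.76 from 2000 to under 4000, 0.08 from 4000 to under 8000, -0.19 from 8000 to under 16000 and -0.13 from 16000 on. The nuclear median in the same bins was 0.53, 0.37, -0.05, 0.01 and -0.01. The median of all genes in these bins was -0.20, -0.02, 0.17, 0.05 and 0.02. So in 4 of 5 bins the mitochondrial members were lower in 24hr-KO, although they were higher in the pooled libraries. The bin under 2000 UMIs does not match between the libraries, whose tables start at 709 and 1493 UMIs. The filter on mitochondrial UMIs also acted unequally, since it left out 16.0% and 13.7% of the barcodes of 24hr-WT in the 2 lowest bins and 0.544% and 0.093% of those of 24hr-KO. Barcodes with hardly any mitochondrial transcript (under 0.5% of UMIs) were 27.8% of the 1279 barcodes under 2000 UMIs in 24hr-KO (25.3 to 30.3) and 10.3% of 1414 in 24hr-WT (8.72 to 11.9), and their nuclear members made up 2.44% and 2.36% of UMIs. Why the depths differ between the libraries was not tested, and with 1 library per group the genotype and the library cannot be told apart.

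Short genes tended to be lower in 24hr-KO. Over the 84 nuclear members the Spearman coefficient of coding length with the log2 ratio, 24hr-KO over 24hr-WT, was 0.51, and over all 12415 genes with a coding length it was 0.33, or 0.47 over the 2927 with at least 50 CPM. The median coding length was 430.5 bases for the nuclear members and 1338 for all genes. The 42 members under their median length had a median ratio of -0.10 and the other 42 of -0.04. After stimulation the coefficient was 0.28 over the members and -0.14 over all genes. Genes are not independent replicates, and the part of length in the ratios was not tested.

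Genes that complete the pathway were read beside the members, from lists of 82 genes. After stimulation 61 of them were above 0, with a median log2 ratio of 0.50. Beside these and the counts below, 46.0% of all 13896 genes were above 0, with a median of -0.11. Of the 3339 genes at 50 CPM or more, 1988 were above 0. Of complex II, which feeds electrons from succinate, *Sdhb*, *Sdhc* and *Sdhd* had log2 ratios of 0.95, 0.83 and 1.03, while *Sdha*, the flavin subunit, had -0.19 (135 and 118 CPM). *Cycs*, cytochrome c itself, went from 185 to 446 CPM (log2 1.27) and was at 345 CPM in 24hr-KO (log2 -0.37 over 24hr-WT), lower than each nuclear member with at least 50 CPM in that comparison. *Cyc1*, the cytochrome c1 of complex III, had 1.14 and -0.10. Of 11 genes of coenzyme Q synthesis 9 were above 0, led by *Coq4* with 3.31 and 28.9 CPM (log2 3.13), and *Coq8b* was at 12.7 CPM in both libraries. Of 37 other assembly factors 26 were above 0, from *Pet100* of complex IV at -1.40 to *Coa4* at 1.45. Of 19 genes that copy, transcribe or process mitochondrial DNA and RNA 16 were above 0, with a median of 0.74 while the mitochondrial transcripts were lower, from *Polg*, the DNA polymerase, at -0.70 to *Mgme1* at 1.74. Of 9 nuclear regulators 5 were above 0, from *Ppargc1b* at -0.47 to *Gabpb1* at 0.51 among those with at least 10 CPM.

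For 24hr-KO over 24hr-WT the medians of these lists were -0.01 for complex II, -0.03 for coenzyme Q synthesis, -0.04 for the other assembly factors, 0.11 for mitochondrial DNA expression and 0.03 for the regulators. The median of all genes was 0.14, above each of these, and that of the genes at 50 CPM or more was -0.01. At 10 CPM or more the highest and lowest genes were *Pdss2* (0.66) and *Coq4* (-0.09) for coenzyme Q, *Atpaf1* (0.31) and *Cox17* (-0.28) for assembly, *Lrpprc*, which stabilizes mitochondrial messenger RNA, (0.42) and *Ssbp1* (-0.09) for mitochondrial DNA expression, and *Yy1* (0.17) and *Nrf1* (-0.04) for the regulators. In complex II *Sdha* stood at 0.12 and *Sdhb* at -0.13.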

How the data were processed

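Single-cell libraries of sorted spleen CD4+ T cells, 1 each for 0hr-WT, 24hr-WT and 24hr-KO, were analyzed. The authors aligned the reads to mm10 and called barcodes with Cell Ranger (version 3.1.0 in the file headers) and deposited raw UMI counts per gene and barcode, without normalization, which are whole numbers. The labels name a 5′ kit and the methods a 3′ kit, so which end was read is not settled, and the annotation release is not given in the sources used here.

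Kept barcodes had more than 200 genes and mt- genes under 15% of UMIs. No doublet caller was run, no upper limit on UMIs was set, and how the authors treated doublets is not given in the sources used here. UMIs were summed per library and scaled to 1000000 (CPM). A gene at 0 in 1 library was set to 3 counts. Intervals are exact Poisson for CPM, exact binomial for ratios and Clopper-Pearson for shares, at 95%. Those of ratios were tested on simulated Poisson counts, which hold no spread between cells or libraries. Those of CPM and shares were not tested. A list is described by its median and counts beside all genes with at least 10 UMIs. Members and lists were chosen with earlier results of these data known. Named were the mitochondrial members, core and catalytic subunits, isoform groups, the 3 highest and 3 lowest ratios at 50 CPM or more and members past 1.5-fold at 10 CPM or more, some of these as ranges, and of the other lists complex II, *Cycs* and the extremes. Of the genes that this rule names, 1 is not reported here. Near-identical stretches were sought in GENCODE M21 transcripts. Alternatives covered scaling, barcode filters, thinning, weighting and gene minimums. Python 3.11.15, numpy 2.4.6, scipy 1.17.1, pandas 2.3.3 and matplotlib 3.10.9 were used.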

Additional observations from a re-analysis of the deposited data

How the results depend on the processing

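No paired analysis was possible because each group had 1 library, and for the same reason no replicate could be left out. Limits are those of 3 libraries that differ in depth and in the share of shallow barcodes, which cannot be told apart from stimulation or genotype. The nuclear median stayed above 0 after stimulation and below 0 for 24hr-KO over 24hr-WT under the alternatives of scaling, barcode filter, weighting and genes given here, but not within single bins of depth. There it was -0.36 after stimulation from 2000 to under 4000 UMIs, and 0.53, 0.37 and 0.010 for 24hr-KO over 24hr-WT under 2000, from 2000 to under 4000 and from 8000 to under 16000 UMIs. The mitochondrial medians changed sign with the weighting and depth of barcodes, and the cause was not tested. The values given next left the counting interval of the reported ones, for a median that of its middle gene or genes, or moved a count by over 1.5 times.

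After stimulation the nuclear median was 0.76 with median-ratio size factors, 1.98 in UMIs per cell, 0.57 at 8000 UMIs or more, 0.45 after thinning, 0.54 as a mean of per-cell shares and 0.58 as a mean over members. The mitochondrial median was -0.43 with size factors, 0.79 per cell, -0.69 with more than 1000 genes and mitochondrial UMIs under 10%, -0.73 at 4000 UMIs or more, 0.47 after thinning, 0.16 as a mean of per-cell shares and -0.25 without near-identical copies. Of 84 nuclear members, 81 were at least 1.5-fold higher and 0 lower per cell, and 6 were lower at 8000 UMIs or more.

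For 24hr-KO over 24hr-WT the nuclear median was -0.22 with size factors, -0.69 per cell, -0.017 at 4000 and -0.0090 at 8000 UMIs or more, -0.10 after thinning and -0.084 as a mean of per-cell shares. The mitochondrial median was 0.051 with size factors, -0.42 per cell, 0.13 in all barcodes, 0.35 with the stricter filter, -0.10 at 4000 and -0.15 at 8000 UMIs or more, 0.11 after thinning, 0.034 as a mean of per-cell shares, 0.23 as a mean over members and 0.29 without near-identical copies. Nuclear members at least 1.5-fold lower numbered 77 per cell, 2 at 4000 and 2 at 8000 UMIs or more, and 0 after thinning, with at least 200 UMIs or with at least 50 CPM. In UMIs per cell the median of all genes was itself -0.49 in this comparison. The share of all genes past 1.5-fold was not counted per cell, in the deeper barcodes or after thinning in either comparison.

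Single members past the fold limit that changed sign did so mainly in UMIs per cell. After stimulation these log2 ratios became 0.51 for *Cox4i2*, 0.29 for *Ndufa3*, 0.37 for *Cox7a2l*, 0.20 for *mt-Co1*, 0.27 for *mt-Atp6*, 0.34 for *mt-Nd3*, 0.69 for *mt-Nd4* and 0.77 for *mt-Nd5*. After thinning they were 1.19 for *Cox4i2*, -0.39 for *Cox6a2*, 0.20 for *mt-Nd4* and 0.41 for *mt-Nd5*, and *mt-Nd5* was 0.078 as a mean of per-cell shares. At 8000 UMIs or more *Cox6a2* was at -1.79, with 0 UMIs in 0hr-WT set to 3. That sign comes from the 3 counts alone, since *Cox6a2* was at 0 CPM in 0hr-WT and 0.21 CPM in 24hr-WT there. For 24hr-KO over 24hr-WT the ratios per cell were -0.20 for *Cox6b2*, -0.23 for *Atp5s*, -0.22 for *mt-Atp8*, -0.32 for *mt-Nd4l*, -0.33 for *mt-Nd5*, -0.20 for *mt-Nd6* and -0.34 for *mt-Cytb*. At 4000 UMIs or more they were -0.023 for *mt-Nd4l*, -0.011 for *mt-Nd5* and -0.063 for *mt-Cytb*, and at 8000 or more -0.0081 for *mt-Atp8*, -0.078 for *mt-Nd4l*, -0.061 for *mt-Nd5*, -0.070 for *mt-Nd6* and -0.12 for *mt-Cytb*. The limit of 8000 UMIs, the limit of 50 CPM and the removal of copies were added after the data were seen.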
